A study of Nothobranchius furzeri with 3 samples.

Results

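The chaperones and protein disulfide isomerases of the endoplasmic reticulum (ER) were followed in the basal epidermis of the killifish *Nothobranchius furzeri*. The 10 genes were chosen by symbol: *hspa5*, *HSP90B1*, *calr*, *canx*, *pdia3*, *pdia4*, *pdia6*, *p4hb*, *hyou1* and *dnajb11*. Each symbol, in any case and with or without a final a or b, matched 1 entry, so that 10 of the 22954 genes of the table were members. The table spells the others *CANX*, *PDIA3*, *PDIA4*, *P4HB*, *HYOU1* and *DNAJB11*, and these spellings are used below. No member had a second entry by this match, and copies without a symbol or under another name were not searched for. *hspa5* and *P4HB* lie on chromosome 2, *HSP90B1* and *PDIA3* on chromosome 13, *DNAJB11* on 14, *pdia6* on 4, *HYOU1* on 11, *PDIA4* on 8, *calr* on 17 and *CANX* on 1, as the table numbers them.

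Proteins that enter the ER are folded there by chaperones and are cross-linked by disulfide isomerases before they leave for the membrane or the cell surface. BiP, the product of *hspa5*, binds unfolded stretches in cycles of ATP hydrolysis, and it also holds the stress sensors of the ER inactive. When unfolded proteins accumulate, as they do when tunicamycin blocks N-linked glycosylation, the unfolded protein response raises transcription of many genes of this machinery in vertebrate cells. Basal keratinocytes are the dividing layer of the epidermis, and they secrete and anchor large disulfide-bonded proteins of the basement membrane.

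UMI counts (counts of unique molecular identifiers, which mark single cDNA molecules) were measured by photo-isolation chemistry (PIC), in which light uncages the reverse transcription primer only over chosen cells. Here the chosen cells were p63-positive cells of the epidermal basal layer on tissue sections. The study's methods name sections of trunk and fin, whereas a figure legend of the study names the fin. Aged (Tm) animals were aged fish kept in tunicamycin at 1 µg/mL, overnight per the labels but for a full day per the study's methods, and gave 3 libraries. Aged and young animals were kept in DMSO and gave 4 libraries each. The labels give neither the age in days nor whether replicates came from separate fish, so that p-values measure only the spread between these libraries. The labels name 1 pool per condition and the same barcodes recur in each, so that condition and pool cannot be told apart.

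Total counts ran from 319223 to 705538 in aged (Tm), from 37655 to 265509 in aged and from 35366 to 298033 in young libraries. A single count was thus worth 1.42 to 3.13 CPM (counts scaled to a common library total) in aged (Tm), 3.77 to 26.6 CPM in aged and 3.36 to 28.3 CPM in young libraries. A count of 0 in the smallest library allows a level of up to 84.8 CPM, by the limit of 3 counts, for counting error only. Of the 17 symbols of the basal keratinocyte list, 10 entries were found and none was at 0 in all libraries. *tp63*, the gene of p63, averaged 1491 CPM in aged (Tm), 911 CPM in aged and 1072 CPM in young libraries. The keratinocyte list summed to 15740 to 21372 CPM in aged (Tm), 27852 to 34312 CPM in aged and 24397 to 60482 CPM in young libraries. Mitochondrial transcripts took 1.94 to 3.38% of counts in aged (Tm), 1.91 to 3.51% in aged and 2.89 to 4.74% in young libraries.

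Tunicamycin treatment was first compared with DMSO in aged fish. The 10 genes together summed to 2303, 2738 and 2815 CPM in aged (Tm) libraries, against 983, 629, 1189 and 660 CPM in aged libraries. The summed level was therefore higher in each aged (Tm) library than in any aged library, with means of 2619 ± 276 CPM (SD, n = 3) and 865 ± 269 CPM (SD, n = 4). Without *hspa5* the sum in aged (Tm) libraries averaged 2160 CPM, against 764 CPM in aged libraries. In bulk libraries of this kind, fewer cells of a type and less RNA per cell cannot be told apart. *hspa5*, *HSP90B1*, *P4HB*, *DNAJB11*, *pdia6* and *HYOU1* rose in aged (Tm) libraries, whereas no change was called for *CANX*, *calr* and *PDIA3*. For 6 of the 10 genes every aged (Tm) library stood above every aged library in CPM, against 11% of the 8627 genes with 30 or more counts.

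**Figure D1:**
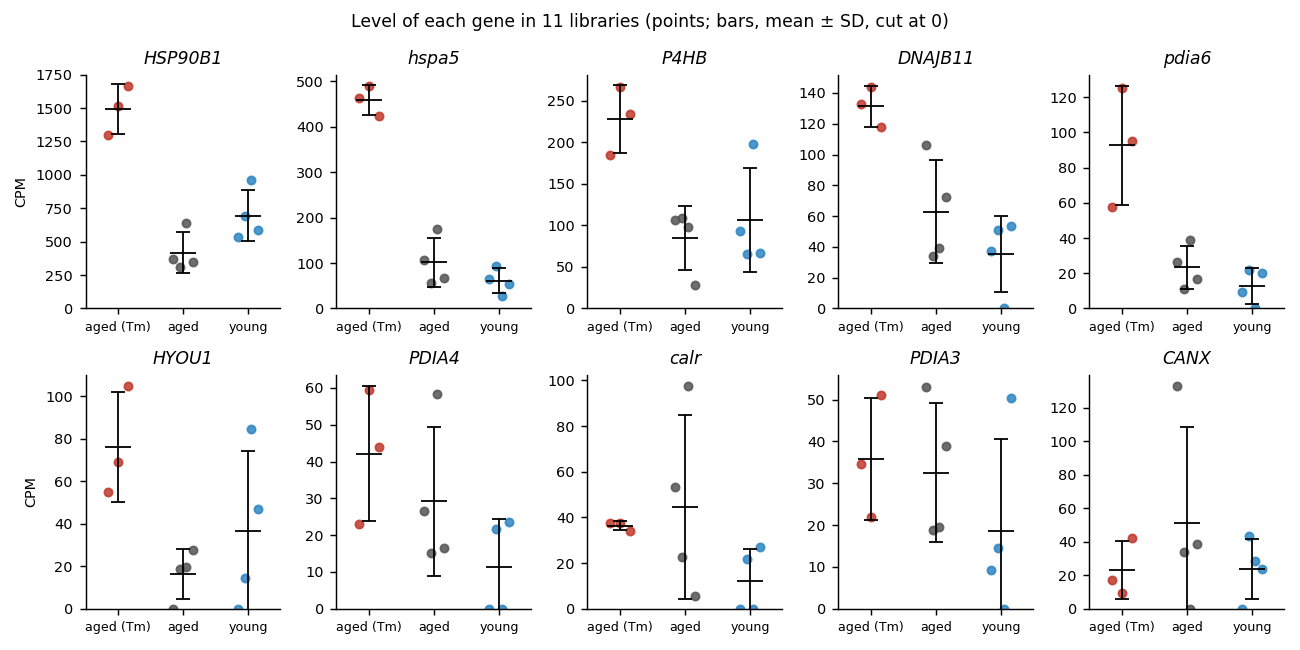
Level of each of the 10 genes in CPM (y axis, linear, each panel with its own range) in 3 aged (Tm), 4 aged and 4 young libraries (points), with mean ± SD (bars, cut at 0). In the upper row and for *HYOU1*, all aged (Tm) points lie above all aged points, and for *PDIA4*, *calr*, *PDIA3* and *CANX* they overlap.

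The first group of members is BiP and the proteins that work on its ATP cycle. *hspa5* had 464, 489 and 424 CPM in aged (Tm) libraries, against 106, 56.5, 175 and 66.5 CPM in aged libraries. The lowest aged (Tm) library stood far above the highest aged library, and the 3 aged (Tm) libraries lay close together (459 ± 32.8 CPM, against 101 ± 53.9 CPM in aged libraries, SD). The log2 fold change was 2.76 ± 0.55 (SE, edgeR adjusted p = 0.00261).

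*DNAJB11* encodes ERdj3, a J-domain co-chaperone that hands substrates to BiP. It had 133, 144 and 118 CPM in aged (Tm) libraries, against 106, 33.9, 39.0 and 72.1 CPM in aged libraries. The groups did not overlap, but the highest aged library rested on only 4 counts, and the step to the lowest aged (Tm) library was narrow. *DNAJB11* had the smallest rise of the tested members (log2 fold change 1.59 ± 0.51, SE, edgeR adjusted p = 0.0285). The call was lost without aged replicate 2 (log2 fold change 1.12, edgeR adjusted p = 0.119) and with upper quartile scaling (1.03, edgeR adjusted p = 0.120). It was also lost with the total counts of the tested genes as the only scaling (0.93, edgeR adjusted p = 0.237).

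*HYOU1* encodes GRP170, a large relative of Hsp70 that exchanges nucleotide on BiP. It had 54.8, 68.9 and 105 CPM in aged (Tm) libraries, against 0, 18.8, 19.5 and 27.7 CPM in aged libraries. The groups did not overlap, and the aged values came from 0 to 5 counts a library. A count of 0 in aged replicate 1 allows up to 79.7 CPM, above 2 of the aged (Tm) values, so that the order was not certain there. The log2 fold change was 2.14 ± 0.63 (SE, edgeR adjusted p = 0.0199). With the total counts of the tested genes as the only scaling the call was lost (1.77, edgeR adjusted p = 0.115). With whole library totals as the only scaling and no filter it was called (1.93, edgeR adjusted p = 0.0952).

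*HSP90B1* encodes GRP94, the Hsp90 of the ER, which matures integrins and other surface receptors. It held the most counts of the 10 genes in every library. Its level was 1297, 1516 and 1668 CPM in aged (Tm) libraries, against 372, 309, 643 and 349 CPM in aged libraries. All aged (Tm) values lay above the highest aged value, that of replicate 3. The log2 fold change was 2.27 ± 0.62 (SE, edgeR adjusted p = 0.0146). The study discussed this gene on these same libraries, so that its call is not independent evidence.

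The disulfide isomerases form the second group, thioredoxin-fold enzymes that make and reshuffle disulfide bonds. *P4HB* encodes protein disulfide isomerase itself, which is also the beta subunit of collagen prolyl 4-hydroxylase. It had 184, 266 and 234 CPM in aged (Tm) libraries, against 106, 109, 97.4 and 27.7 CPM in aged libraries. Aged replicate 4 lay far below the other aged libraries, and no aged library reached the lowest aged (Tm) library. The log2 fold change was 1.84 ± 0.54 (SE, edgeR adjusted p = 0.0195). With whole library totals as the only scaling and no filter the call was lost (1.49, edgeR adjusted p = 0.107).

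*pdia6* encodes P5, an isomerase that associates with BiP. It had 57.6, 125 and 95.0 CPM in aged (Tm) libraries, against 26.6, 11.3, 39.0 and 16.6 CPM in aged libraries. The groups did not overlap, and aged libraries held only 1 to 3 counts each. Its log2 fold change was the second largest among the members (2.62 ± 0.57, SE, edgeR adjusted p = 0.00464).

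*PDIA4* encodes ERp72, an isomerase with more thioredoxin-like domains than *P4HB*. It had 23.1, 59.5 and 43.9 CPM in aged (Tm) libraries, against 26.6, 15.1, 58.5 and 16.6 CPM in aged libraries, and the groups overlapped. It did not pass the filter on low counts, and in a fit without that filter it was called higher (log2 fold change 1.90 ± 0.66, SE, edgeR adjusted p = 0.0732). With libraries scaled by total count alone it was not called (0.81, edgeR adjusted p = 0.522), nor without the 3 smallest libraries (1.57, edgeR adjusted p = 0.176).

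The third group is the lectin cycle, which binds glucose-trimmed N-glycans, the modification that tunicamycin blocks. Calnexin (*CANX*) is its membrane-bound lectin, calreticulin (*calr*) its soluble lectin, and ERp57 (*PDIA3*) the isomerase that both recruit. *PDIA3* had 34.6, 21.9 and 51.0 CPM in aged (Tm) libraries, against 53.1, 18.8, 19.5 and 38.8 CPM in aged libraries. *calr* had 37.5, 37.6 and 34.0 CPM in aged (Tm) libraries, against 53.1, 22.6, 97.4 and 5.55 CPM in aged libraries. *CANX* had 17.3, 9.40 and 42.5 CPM in aged (Tm) libraries, against 133, 33.9, 0 and 38.8 CPM in aged libraries. For all 3 genes the aged (Tm) values fell within or across the range of the aged values. In the fit without a filter, the log2 fold changes were 1.29 ± 0.64 for *PDIA3* (edgeR adjusted p = 0.290), 1.32 ± 0.65 for *calr* (edgeR adjusted p = 0.285) and 0.20 ± 0.63 for *CANX* (SE, edgeR adjusted p = 0.941). With total counts as the only scaling they were 0.28, 0.10 and -0.83, so that the direction of *CANX* depended on the scaling. The mean CPM of *calr*, 36.4 in aged (Tm) and 44.7 in aged libraries, went the other way from its log2 fold changes, so that its direction was not certain either. At 1 to 9 counts in aged libraries where they were seen, a difference in these 3 genes was hardly detectable.

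**Figure D2:**
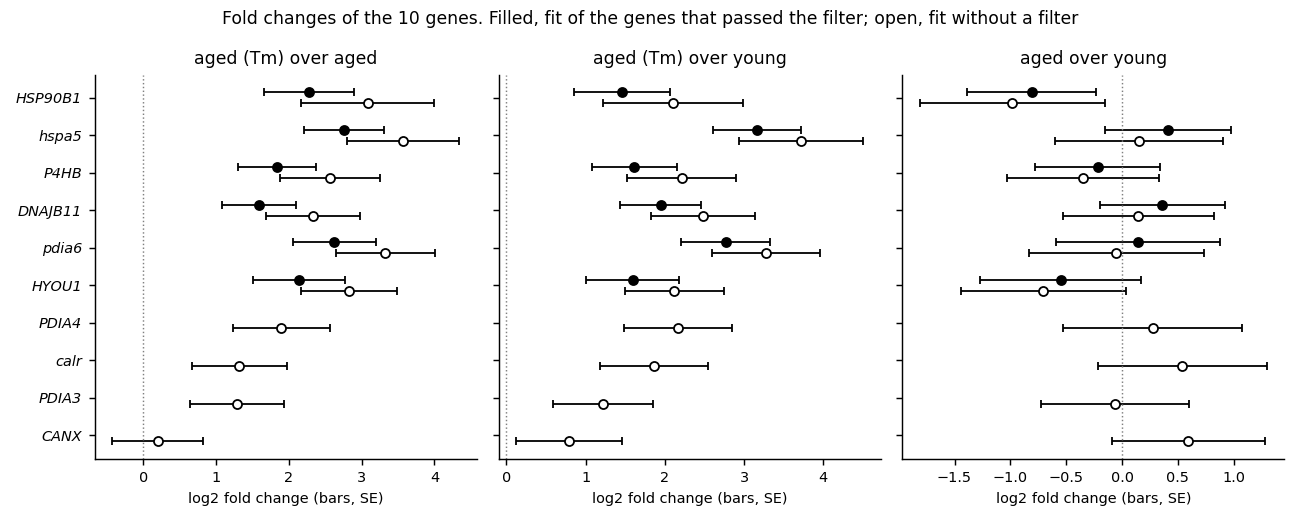
Log2 fold change (x axis, bars SE) of each gene in the 3 comparisons, from the fit of the genes that passed the filter (filled) and the fit of all genes (open). In aged (Tm) over aged the filled points lie between 1.59 and 2.76 and *CANX* lies at 0.20, whereas in aged over young the points lie on both sides of 0.

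Of the 10 members, 6 passed the filter on low counts (3963 genes), and all 6 were called higher in aged (Tm) than in aged libraries at an edgeR adjusted p below 0.1, against 18.5% of the genes tested. This count is no support on its own. In a fit without the aged (Tm) libraries, which set its filter anew, *hspa5*, *pdia6*, *DNAJB11* and *HYOU1* did not pass, and only *HSP90B1* and *P4HB* did. At the 55.5 CPM cutoff of the fit of 11 libraries, however, *hspa5* stood at or over it in 4 aged and 2 young libraries. *pdia6*, *DNAJB11* and *HYOU1* reached that cutoff in too few aged and young libraries to pass without the aged (Tm) libraries. In the fit without a filter 7 of the 10 were called higher, against 6.12% of 22954 genes, and log2 fold changes ran from 0.20 to 3.57, with a median of -0.14 over all genes. The median of the 10 members in that fit was 2.45. The median log2 fold change of the 6 members in the fit with the filter was 2.21, against -0.03 over all genes tested. Like the count, it is no support on its own, since it is taken over members that passed the filter. Scaling by the total count of the tested genes alone put the median of all genes at -0.58, upper quartile scaling at -0.52 and RLE size factors at 0.18. Members called were then 4 (without *HYOU1* and *DNAJB11*), 5 (without *DNAJB11*) and 6. All genes called split into 733 higher and 801 lower with TMM, 370 and 1025 with total counts, 420 and 1225 with upper quartile scaling and 960 and 659 with RLE. All 6 members kept a positive log2 fold change under each of these scalings.

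The fold changes were also read against depth and against other cell types. Thinned to 35366 counts a library, only *HSP90B1* and *hspa5* could be tested. *HSP90B1* then had 42, 53 and 53 counts in aged (Tm) libraries, against 11, 9, 27 and 13 counts in aged libraries, and *hspa5* had 12, 11 and 18 counts, against 4, 4, 9 and 2 counts. The thinned counts still did not overlap, but neither gene was called (log2 fold changes 0.63 and 0.50, and 1.13 and 0.98 with total counts as the scaling). Those totals were of the 605 tested genes only, so that these log2 fold changes do not equal the ratios of the thinned counts. With the 3 smallest libraries left out all 10 members were tested and the same 6 genes were called, an alternative chosen after seeing the data. These were aged replicates 1 and 3 and young replicate 3, so that only aged replicates 2 and 4 were kept. The summed level of the 10 genes was lower in those kept (629 and 660 CPM) than in the aged libraries left out (983 and 1189 CPM). Suprabasal keratinocyte markers summed to 1858 to 3997 CPM in aged (Tm) and 558 to 2049 CPM in aged libraries, immune markers to 620 to 900 CPM and 372 to 1198 CPM, fibroblast markers to 536 to 2157 CPM and 1189 to 4237 CPM, and markers of mucous, club and ionocyte cells to 34.6 to 162 CPM and 77.9 to 286 CPM. Markers of skeletal muscle summed to 4373 to 6779 CPM in aged (Tm) and 5431 to 22892 CPM in aged libraries, those of erythrocytes to 20.2 to 132 CPM and 39.0 to 150 CPM, and those of pigment cells to 34.6 to 164 CPM and 154 to 319 CPM. The ranges of these 7 lists overlapped between the groups, and those of the basal keratinocyte list given above did not. Within that list *krt5* averaged 9059 CPM in aged (Tm) and 24614 CPM in aged libraries. *krt15* (1961 and 4051 CPM), *ITGA3A*, *ITGA3B* and *ITGA6A* (12.3 and 70.0 CPM) also had the lower mean in aged (Tm) libraries. The higher mean in aged (Tm) libraries was that of *tp63*, *epcam* (4472 and 1984 CPM), *itgb4* (1020 and 252 CPM), *ITGA6* (276 and 63.2 CPM) and *cldni* (1.99 and 0 CPM). The part of these genes in the result was not tested. A list of neuron and synapse genes, at 451 to 933 CPM in aged (Tm) and 1156 to 4807 CPM in aged libraries, did not overlap either. With that list as a covariate no member was called, at log2 fold changes of 1.20 to 2.80 and adjusted p of 0.109 to 0.562, and since the list differed between the groups, it and the treatment cannot be told apart.

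The make-up of the 10 genes was then compared within libraries, which needs no scaling between them. *hspa5* took 15.1 to 20.2% of the members' counts in aged (Tm) libraries, against 8.98 to 14.8% in aged libraries. *CANX* took 0.343 to 1.51% in aged (Tm) libraries, against 0 to 13.5% in aged libraries, and *PDIA4* 1.00 to 2.17%, against 2.40 to 4.92%. *HSP90B1* took 55.4 to 59.3% in aged (Tm) libraries, against 37.8 to 54.1% in aged libraries. The shares of *HSP90B1* and *hspa5* were thus higher, and that of *PDIA4* lower, in each aged (Tm) library than in any aged library. The steps were narrow, and 1 count more or less could turn these orders. The highest aged shares of *HSP90B1* and *hspa5*, in aged replicate 3, rested on 33 and 9 of 61 counts. *PDIA4* held 1 to 4 counts in aged libraries.

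**Figure D3:**
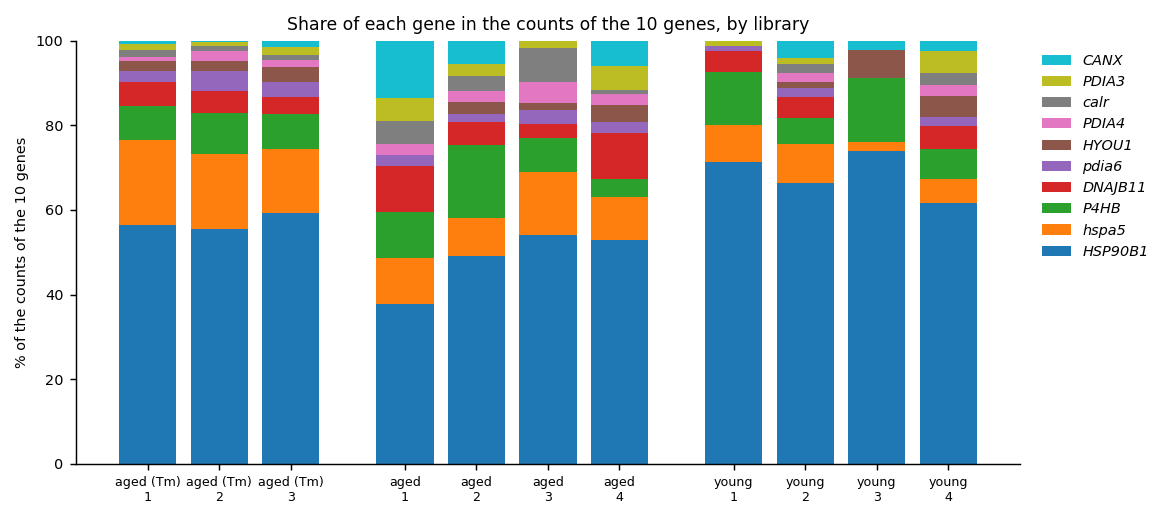
Share of each gene in the counts of the 10 genes (y axis, percent, stacked to 100) in each of the 11 libraries (x axis, by group and replicate). *HSP90B1* is the widest band in each bar and *hspa5* is wider in each aged (Tm) library than in any aged or young library.

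*hspa5* had the largest log2 fold change of the 10 members in the fit without a filter (3.57), so that a lower ratio to it is no support on its own. The log2 ratio of each of the other 9 members to *hspa5* (with 1 added to each count) was lower in aged (Tm) than in aged libraries for all 9. The difference was -0.31 for *HSP90B1*, -0.65 for *pdia6*, -0.78 for *P4HB*, -0.80 for *HYOU1* and -1.21 for *DNAJB11*. It was -1.95 for *PDIA4*, -2.23 for *calr*, -2.36 for *PDIA3* and -3.26 for *CANX*. By two-sided exact permutation tests over 35 splits, *PDIA4* reached the smallest p allowed (0.0286), and the p of *calr*, *PDIA3* and *DNAJB11* was 0.0571. After adjustment over the 9 genes none passed (lowest adjusted p = 0.129). A single gene at the smallest p cannot pass this adjustment alone, so that the test cannot decide for 1 member. A difference in response between *hspa5* and any other member was thus neither shown nor excluded. Sizes and, for *HSP90B1*, the direction depended on depth. After thinning, the difference was 0.31 for *HSP90B1*, -0.18 for *pdia6*, -0.29 for *DNAJB11*, -0.75 for *P4HB*, -1.41 for *calr* and -1.54 for *PDIA3*, and the other 3 members had too few counts. The added count pulls ratios toward equality in the shallow aged libraries, and with 5 added in place of 1 the test called 8 of the 9, all but *HSP90B1* (difference 0.0123).

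Aged fish were next compared with young fish, both in DMSO. No member was called: the log2 fold changes of the 6 tested members ran from -0.81 ± 0.58 for *HSP90B1* (edgeR adjusted p = 0.974) to 0.41 ± 0.56 for *hspa5* (SE, edgeR adjusted p = 0.996). None passed an unadjusted p of 0.05 in this fit or in DESeq2, and 1 did in limma voom and 1 in edgeR with the synapse list as a covariate (*HSP90B1*, log2 fold change -0.83, unadjusted p = 0.0466, adjusted p = 0.529). Of all genes tested, 0.707% were called in either direction. The summed level of the 10 genes was 983, 629, 1189 and 660 CPM in aged libraries, against 749, 1039, 1301 and 953 CPM in young libraries, and the groups overlapped, as they did for each of the 10 genes. *hspa5* had 106, 56.5, 175 and 66.5 CPM in aged libraries, against 65.5, 94.5, 28.3 and 53.7 CPM in young libraries. *HSP90B1* had 372, 309, 643 and 349 CPM in aged libraries, against 533, 690, 961 and 587 CPM in young libraries. Only aged replicate 3 lay among the young values of *HSP90B1*. The median log2 fold change of the 6 members was -0.04, against 0.05 over all genes tested. Fibroblast markers summed to 1189 to 4237 CPM in aged libraries, against 8568 to 20211 CPM in young libraries, with no overlap, and their part in these values was not tested.

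Within libraries, *HSP90B1* took 37.8 to 54.1% of the members' counts in aged libraries, against 61.6 to 73.9% in young libraries. The ratio of *HSP90B1* counts to *hspa5* counts was 3.50, 5.47, 3.67 and 5.25 in aged libraries, against 8.14, 7.31, 34.0 and 10.9 in young libraries. Every young library lay above every aged library, although young replicate 3 held only 1 *hspa5* count. The mean log2 ratio, aged minus young, differed by -1.28 (SE 0.37, exact permutation p = 0.0286, the smallest allowed), and it did not pass after adjustment over 9 genes (adjusted p = 0.257). A single gene at the smallest p cannot pass that adjustment alone, so that the adjusted value decides nothing here. The other 8 members differed by -0.81 to 0.34 (lowest exact permutation p = 0.286). This test was added after the data were seen. In aged (Tm) libraries the ratio of counts was 2.80, 3.10 and 3.94, which overlapped with that of aged libraries.

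**Figure D4:**
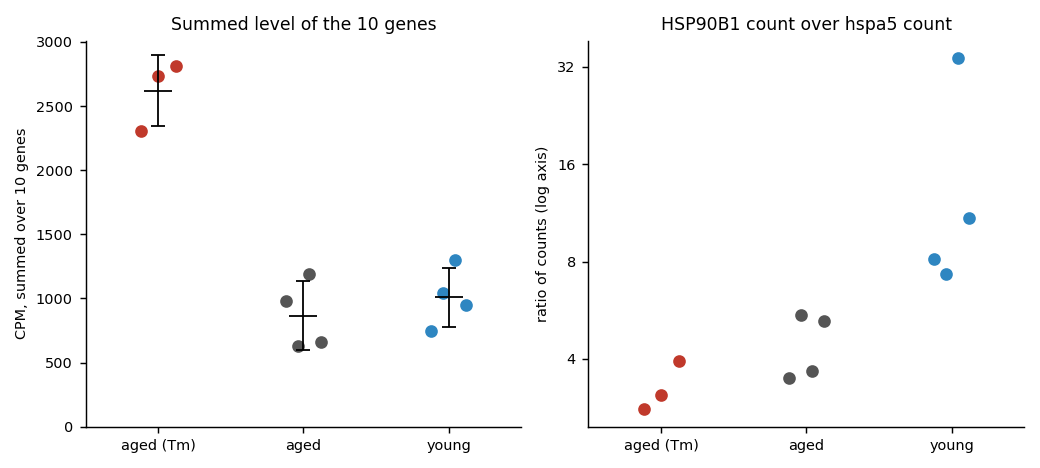
Left, summed CPM of the 10 genes by library with mean ± SD, and right, *HSP90B1* counts over *hspa5* counts by library on a log axis, for 3 aged (Tm), 4 aged and 4 young libraries (x axis). The sum is 2303 CPM or more in aged (Tm) libraries and at most 1301 CPM in the others, and the ratio is 7.31 or more in young libraries and at most 5.47 in the others.

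Aged (Tm) fish were last compared with young fish. The 6 tested members were called higher in aged (Tm) libraries, against 15.9% of the genes tested. That count is again no support on its own, since *pdia6*, *DNAJB11* and *HYOU1* did not reach the cutoff of the filter in enough libraries without aged (Tm). *hspa5* did reach it without them, but it did not pass in the fit of aged and young libraries alone. The log2 fold changes were 3.17 ± 0.55 for *hspa5* (edgeR adjusted p = 0.000674), 2.77 ± 0.56 for *pdia6* (edgeR adjusted p = 0.00207) and 1.95 ± 0.51 for *DNAJB11* (SE, edgeR adjusted p = 0.0121). *P4HB* (1.62), *HYOU1* (1.59) and *HSP90B1* (1.46) had edgeR adjusted p of 0.0383, 0.0600 and 0.0888. The call of *HSP90B1* was lost without any 1 young library and without aged (Tm) replicate 1 or 2. The count of members called fell to 2 of 5 tested without aged (Tm) replicate 2, to 3 of 7 without young replicate 2 and to 3 of 5 without young replicate 4. *pdia6* did not pass the filter without aged (Tm) replicate 2 or young replicate 4, so that it was not tested there. In the fit without a filter 6 of the 10 were called, against 4.6% of all genes, and *PDIA4* (2.17, edgeR adjusted p = 0.0411) took the place of *HSP90B1* (edgeR adjusted p = 0.205).

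*hspa5*, *HSP90B1*, *DNAJB11*, *pdia6* and *calr* were above every young library in each aged (Tm) library, 5 of 10 against 11.2% of the genes with 30 or more counts. *calr* had 37.5, 37.6 and 34.0 CPM in aged (Tm) libraries, against 0, 21.8, 0 and 26.8 CPM in young libraries. A count of 0 in young replicate 3 allows up to 84.8 CPM, so that the order of *calr*, and that of *pdia6* (also at 0 there, against 57.6 CPM in aged (Tm) replicate 1), was not certain. Median log2 fold changes were 1.78 for the 6 members and -0.10 over all genes tested. Like the count, the 1.78 is no support on its own, since it is taken over members that passed the filter. In the fit without a filter the medians were 2.14 for the 10 members and -0.05 over all genes. Genes called split into 632 higher and 523 lower with TMM, 346 and 474 with total counts, 406 and 907 with upper quartile scaling and 868 and 377 with RLE. Markers of basal keratinocytes (15740 to 21372 CPM in aged (Tm) libraries, against 24397 to 60482 CPM in young libraries), fibroblasts (536 to 2157 CPM, against 8568 to 20211 CPM) and skeletal muscle (4373 to 6779 CPM, against 21618 to 85676 CPM) did not overlap, and their part was not tested. Markers of mucous, club and ionocyte cells summed to 141 to 496 CPM in young libraries, those of erythrocytes to 80.5 to 170 CPM, of pigment cells to 93.6 to 298 CPM, of immune cells to 537 to 1142 CPM, of suprabasal keratinocytes to 481 to 3127 CPM and of neurons and synapses to 823 to 2488 CPM.

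Other genes of ER folding were read from 9 lists of the same and neighbouring pathways, to be set against the 18.5% of all genes tested that were called higher in aged (Tm) over aged. For the fit without a filter that share was 6.12% of 22954 genes. Most entries of these lists did not pass the filter, and genes named below from the fit without a filter were chosen after their values were seen. A gene high in aged (Tm) libraries can pass the filter through these libraries alone, so that the counts called higher are no support on their own. *sdf2l1*, for example, held 27, 30 and 75 counts in aged (Tm), 0, 19, 0 and 3 in aged and 1, 0, 0 and 8 in young libraries. In aged (Tm) over aged, the list of ER Hsp40 co-chaperones and exchange factors had 1 of 11 entries tested, and it was called: *sdf2l1*, which works with ERdj3 on BiP, averaged 92.7 ± 14.3 CPM in aged (Tm) and 22.0 ± 33.9 CPM in aged libraries (SD, log2 fold change 1.64, edgeR adjusted p = 0.0582). Against young libraries, at 9.05 ± 12.7 CPM (SD), it was higher by 3.00 on the log2 scale (edgeR adjusted p = 0.00783). Among ER oxidases and redox enzymes 2 of 5 tested genes rose, both selenoproteins of the ER: *selenof* (log2 fold change 2.23, edgeR adjusted p = 0.0208) and *selenok* (1.86, edgeR adjusted p = 0.0226). The 2 tested genes of the list of other thioredoxin-fold proteins, the 1 tested ER prolyl isomerase and the 1 tested gene of N-glycan trimming were not called. Of 3 tested genes of collagen folding, *P4HA2*, an alpha subunit that pairs with *P4HB* in collagen prolyl 4-hydroxylase, fell (8.64 ± 7.37 CPM in aged (Tm) and 49.0 ± 24.8 CPM in aged libraries, SD, log2 fold change -1.78, edgeR adjusted p = 0.0687). Without the filter that call was lost (-0.99, edgeR adjusted p = 0.521), and *crtap*, a partner of prolyl 3-hydroxylase that did not pass the filter, was called higher (2.45, edgeR adjusted p = 0.0951).

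Of 5 tested genes on the list of ER-associated degradation, among 22 entries, 3 rose in aged (Tm) over aged. On this route act *VCP*, the ATPase that extracts proteins from the ER (log2 fold change 1.78, edgeR adjusted p = 0.0195), and *DERL1*, a subunit of the retrotranslocation channel (1.36, edgeR adjusted p = 0.0691). The third was *CRELD2* (1.57, edgeR adjusted p = 0.0599), which is counted here only as an entry of the list. *VCP* was named by the study on these libraries. Without the filter 4 of the 22 were called higher, against 6.12% of all genes, with *syvn1*, the ubiquitin ligase of this route, besides these 3. None of the 3 tested sensors and transcription factors of the unfolded protein response was called, but 10 of the 13 entries did not pass the filter. Without it 3 of the 13 were called higher, against the same 6.12%. These were *EIF2AK3*, which encodes the sensor PERK (36 counts in all aged (Tm) libraries and 3 in all aged libraries, log2 fold change 3.00, edgeR adjusted p = 0.0150), and its downstream factors *atf4a* (102 and 14 counts, 2.20, edgeR adjusted p = 0.0174) and *DDIT3*, which encodes CHOP (37 and 3 counts, 2.94, edgeR adjusted p = 0.0175). The study named *atf4* and *ddit3* on these same libraries, so that their calls are not independent evidence. Of 10 tested genes on the list of cytosolic chaperones 5 rose, of which *trap1* encodes the mitochondrial Hsp90 (1.51, edgeR adjusted p = 0.0323). The other 4 were *PTGES3A* (2.62), which encodes p23, a co-chaperone of Hsp90, *hspa4b* (2.36), an exchange factor of Hsp70, *DNAJA2* (2.21) and *STIP1* (1.72), with edgeR adjusted p of 0.00624, 0.00624, 0.0144 and 0.0180. No gene of the 9 lists was called in aged over young. In aged (Tm) over young, *selenok* (1.88), *CRELD2* (1.81), *hspa4b* (2.47), *PTGES3A* (2.28), *DNAJA2* (1.86) and *trap1* (1.40) were higher. *agr2* (-1.95), *P4HA2* (-1.94), *mbtps1* (-1.24) and *BAG3* (-1.41), of the list of cytosolic chaperones, were lower. Without the filter none of these lower calls remained (edgeR adjusted p of 0.310, 0.401, 0.662 and 0.572). In that fit *fkbp7*, an ER prolyl isomerase that did not pass the filter, was called lower (-3.29, edgeR adjusted p = 0.0284). It held 2 counts in all aged (Tm) and 16 in all young libraries. Further genes called higher there were *DNAJC1*, *selenof*, *selenom*, *atf4a*, *syvn1*, *hspa4a* and *ptges3b*. Without the filter *selenom* and *hspa4a* were also called higher in aged (Tm) over aged. *agr2*, an isomerase relative of mucous cells, averaged 52.3 CPM in aged (Tm) and 204 CPM in young libraries.

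Among the 6 tested members, *hspa5* and *pdia6* varied most alike in log2 CPM over the 11 libraries (Pearson r = 0.96), and over the 8 aged and young libraries alone r was 0.89. *HSP90B1* and *DNAJB11*, by contrast, had r of 0.42 over 11 and -0.68 over 8 libraries. These values are descriptions, since the libraries share depth and group. The genes outside the 10 whose pattern over the 11 libraries was most like the mean of the 6 members were ENSNFUG00015007824, which has no symbol in the table, *SLC3A2* (r = 0.95), *CHAC1* (0.94), *prep* (0.93) and *mmp13a* (0.93). Those most like *hspa5* were *VARS* (0.96), *RBM34* (0.95), *SMARCA5* (0.94), *atp2b4* (0.93) and *DNAJC15* (0.92).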

How the data were processed

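PIC libraries were analysed from the deposited table of UMI counts per gene. Per the labels and the methods of the study, the authors separated reads by barcode with UMI-tools 1.0.0, mapped them with HISAT2 2.1.0 and assigned counts to genes (featureCounts 1.6.4 is named), without normalization. Build and annotation are not given in the sources used here, and sequences were not used. Columns were matched to groups by name. CPM were computed on library totals. Counts were fitted in edgeR 4.0.16 (R 4.3.3; TMM, filterByExpr by group, quasi-likelihood test, two-sided, Benjamini-Hochberg adjustment over all genes tested, threshold 0.1) in 1 fit of 11 libraries. DESeq2 1.42.0, which the study names (1.20.0 per the labels), and limma voom 3.58.1 were alternatives, as were other scalings, filters, thinning, a covariate, a block for replicate numbers and fits without single libraries. The filter kept genes at 55.5 CPM or more in at least 3 libraries. Scaling by total counts used the totals of the genes tested in each fit, which are whole library totals only without a filter. The SE of an edgeR log2 fold change was taken as its size over the square root of the F statistic of the test, which is an approximation. Ratios to *hspa5* were compared with exact permutation tests. The fit was tested on simulated data. The members and lists were chosen with earlier results of these data known. Named genes were all members, the called genes of each list and comparison, further genes called without the filter, and the 5 genes most like the members and *hspa5*. A planned cap of 4 called genes per list and comparison was not kept.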

Additional observations from a re-analysis of the deposited data

Results flagged for a closer look

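*P4HB* in aged replicate 4 stood apart from the other aged libraries, at 27.7 CPM (5 counts) against 97.4 to 109 CPM. It was the 1 sample of this kind among 22 groups of 4 libraries and genes or sums examined, where chance gives about 1 in 20. Without that library the log2 fold change of *P4HB* in aged over young was 0.15, against -0.22 with it, and *P4HB* was still called in aged (Tm) over aged.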

How the results depend on the processing

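In aged (Tm) over aged, members called stayed at 4 to 7 under other scalings, filters and tools, and at 4 to 6 with 1 library left out (5 to 7 tested). They were 0 of 2 tested after thinning (0 also with total counts as the scaling) and 0 with the synapse list as a covariate. In aged over young the count was 0 under every alternative run. In aged (Tm) over young it was 3 with upper quartile scaling, 3 with total counts, 2 with total counts and no filter, 1 after thinning (1 also with total counts) and 2 with the covariate, and 2 to 6 with 1 library left out (5 to 7 tested). The causes were not tested, but thinning left 2 members to test. Among members not called in aged over young, signs turned for *HYOU1* (-0.88 to 0.0583 with 1 library left out), *P4HB* (-0.58 to 0.15 with 1 library left out) and *pdia6* (-0.0504 without a filter, -0.00408 to 0.29 with 1 library left out). Without the 3 smallest libraries, they turned for *pdia6* (-0.28), *P4HB* (0.0294) and *hspa5* (-0.13). Of the ratios to *hspa5*, 8 of 9 passed with 5 added and 0 of 6 after thinning, where that of *HSP90B1* turned to 0.31. With 1 library left out 0 of 9 passed, where pairing or leaving out an aged library left too few splits to pass, and leaving out an aged (Tm) library did not. The summed level in aged (Tm) was 4011 CPM on TMM-scaled library sizes and 2160 CPM without *hspa5*. No TMM-scaled sum is given for aged or young libraries, so that a difference between groups cannot be read from the 4011 CPM. Same-numbered libraries did not deviate together throughout (correlations of deviations -0.06, 0.38 and 0.16 for aged (Tm) and aged libraries). The correlations were -0.51, -0.25, 0.33 and 0.32 for aged and young, and 0.04, -0.20 and 0.26 for aged (Tm) and young libraries. So few values cannot exclude a pairing by replicate number. With the replicate block, members called were 6, 0 and 4 in aged (Tm) over aged, aged over young and aged (Tm) over young.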
